A study of Mus musculus with 12 samples.

Results

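Spinal interneurons are set apart by the transcription factors they switch on, and 10 such factors were listed here for the embryonic cord: Pax2, Pax3, Pax7, Lbx1, Tlx3, Lmx1b, Lhx1, Lhx5, Gata3 and Tfap2b. They were listed by Ensembl identifier and not by a cut on their measured values, although earlier results of these data were known. Of the 10, 6 were among the 10481 genes of the count table: Pax2 (ENSMUSG00000004231), Tlx3 (ENSMUSG00000040610), Lhx1 (ENSMUSG00000018698), Lhx5 (ENSMUSG00000029595), Gata3 (ENSMUSG00000015619) and Tfap2b (ENSMUSG00000025927). The other 4, Pax3, Pax7, Lbx1 and Lmx1b, were not analysed here, so the progenitor factors of the dorsal neural tube (Pax3 and Pax7) are not represented among the genes measured.

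In the dorsal spinal cord, neurons that will inhibit their targets and neurons that will excite them arise side by side from the same progenitors and are told apart by opposing transcription factors. Pax2, Lhx1, Lhx5 and Tfap2b are used by neurons on the inhibitory path, which use GABA or glycine, though not by these neurons alone. Tlx3, by contrast, directs the excitatory, glutamatergic path and holds back the inhibitory one. Gata3 belongs to the ventral cord, where it marks the inhibitory V2b neurons, and it is also used by inhibitory neurons of the midbrain and by serotonergic neurons of the hindbrain. Several of these factors work in the brain too, with Pax2, Lhx1 and Lhx5 in the developing cerebellum and Lhx5 also in early neurons of the cortical surface.

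In ribosome profiling, stretches of mRNA that a ribosome shields from RNase are sequenced, and the count of these footprints on a gene is called its ribosome occupancy here. Footprints were counted in brain and in spinal cord of mouse embryos at embryonic day 14.5 (E14.5), with 3 libraries in each of 4 groups and 12 in all. SMA embryos of the Taiwanese line lacked both copies of mouse Smn and were hemizygous for the human SMN2 transgene (Smn-/-; SMN2tg/0). Control embryos carried the same transgene and were heterozygous for Smn (Smn+/-; SMN2tg/0), so they were not wild-type animals, and every library came from an SMN2 carrier. No mRNA level was measured alongside, so a change in footprints can be of the mRNA, of the ribosomes on it or of both. In whole tissue, fewer cells of a type and less RNA per cell cannot be told apart.

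Levels are given as normalized CPM, the usual measure that scales the footprints on each gene to a common library total, here with the TMM factors of all 12 libraries, and as mean ± SD over 3 libraries. Library totals ran from 3683842 to 12793955 footprints, and they went with the groups. They were 10315064 to 12793955 in control cord and 5162190 to 8027322 in SMA cord, so depth and genotype cannot be told apart there. In brain they were 4207100 to 9117017 in control and 3683842 to 5406430 in SMA libraries. All control brain totals lay below all control cord totals, so depth and tissue cannot be told apart in control embryos. The labelled tissues showed in their marker genes: all 8 Hox genes that could be followed by name, which mark the cord, were higher in spinal cord than in brain in both genotypes, and their summed level lay between 2.19 and 5.58 CPM in the 6 brain libraries and between 389 and 688 CPM in the 6 cord libraries. All 3 brain region markers followed (Otx2, Lhx2 and Nkx2-1) were lower in spinal cord in both genotypes. The Hox genes may have passed the study's filter on level for their cord libraries alone, so their shared direction is a check of the labels only. A pair of libraries stood apart. In control spinal cord library 1 the 3 brain region markers summed to 89.2 CPM, against 10.5 to 39.0 CPM in the other cord libraries, and Otx2, a factor of forebrain and midbrain, reached 37.0% of its mean in control brain. In control brain library 2 all 6 interneuron factors were at their lowest of the group. Calls that turn on either library are also given without it.

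Pax2, a paired-domain factor of inhibitory interneurons (chromosome 19, 44746601 to 44838269, GRCm38.p6), differed between the tissues by the largest fold of the 6. In control spinal cord its level was 96.8, 152 and 137 CPM in libraries 1, 2 and 3, and in SMA spinal cord it was 141, 142 and 144 CPM. In control brain it was 8.86, 0.420 and 8.54 CPM, from 81, 2 and 35 footprints, and in SMA brain 5.74, 0.742 and 2.79 CPM, from 21, 4 and 10 footprints. Every cord library therefore lay above every brain library by a wide margin, and within brain library 2 of each genotype was the lowest. The exact Poisson 95% interval of control brain library 2 was 0.0509 to 1.52 CPM. It lay below the intervals of libraries 1 (7.04 to 11.0 CPM) and 3 (5.95 to 11.9 CPM). Such intervals cover counting error only, and this library was singled out for its low level. The source of the gap was not tested.

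Tlx3, the homeodomain factor of excitatory dorsal neurons (chromosome 11, 33200752 to 33203588), followed the same split. It stood at 12.1, 32.1 and 11.6 CPM in control spinal cord and at 14.7, 22.9 and 27.3 CPM in SMA spinal cord. In brain it had few footprints, 17, 4 and 11 in the control libraries (1.86, 0.841 and 2.68 CPM) and 2, 4 and 6 footprints in the SMA libraries (0.547, 0.742 and 1.67 CPM). Brain and cord libraries did not overlap, while among the control cord libraries number 2 was far above the others.

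Lhx1, a LIM homeodomain factor of early inhibitory neurons (chromosome 11, 84517975 to 84525534), was occupied in both tissues, and more so in the cord. Its level was 65.7, 86.8 and 83.3 CPM in control cord and 75.0, 70.1 and 86.1 CPM in SMA cord. In control brain it was 57.8, 25.8 and 59.8 CPM, and in SMA brain 33.1, 35.4 and 53.0 CPM. No brain library reached the lowest cord library, although the step between 59.8 and 65.7 CPM was small.

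Lhx5, the close relative of Lhx1 (chromosome 5, 120431886 to 120441457), was by contrast nearly level across the 4 groups. It was 34.1, 18.7 and 33.7 CPM in control brain and 29.8, 27.1 and 23.7 CPM in SMA brain. In control cord it was 29.2, 31.5 and 30.7 CPM and in SMA cord 29.0, 32.8 and 37.3 CPM. Brain and cord libraries overlapped in both genotypes, and control brain library 2 was the lowest of all 12.

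Gata3, a zinc finger factor (chromosome 2, 9857078 to 9887953), had lower group means in cord than in brain in both genotypes, as did Tfap2b. Its level was 46.9, 22.1 and 39.5 CPM in control brain and 30.1, 38.4 and 48.0 CPM in SMA brain. It was 32.5, 13.4 and 36.1 CPM in control cord and 23.4, 28.4 and 26.4 CPM in SMA cord. The control groups overlapped and the SMA groups did not. Control cord library 2, where Gata3 was lowest of all 12 libraries, was the one where Tlx3 was highest.

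Tfap2b, an AP-2 factor of inhibitory dorsal neurons (chromosome 1, 19208908 to 19238845), was occupied to a like extent in both tissues. Its level was 160, 82.0 and 165 CPM in control brain and 147, 144.5 and 209 CPM in SMA brain. In control cord it was 128, 136 and 127 CPM and in SMA cord 151, 155 and 141 CPM. Brain and cord libraries overlapped, and the cord libraries lay much closer together than the brain libraries.

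**Figure D1:**
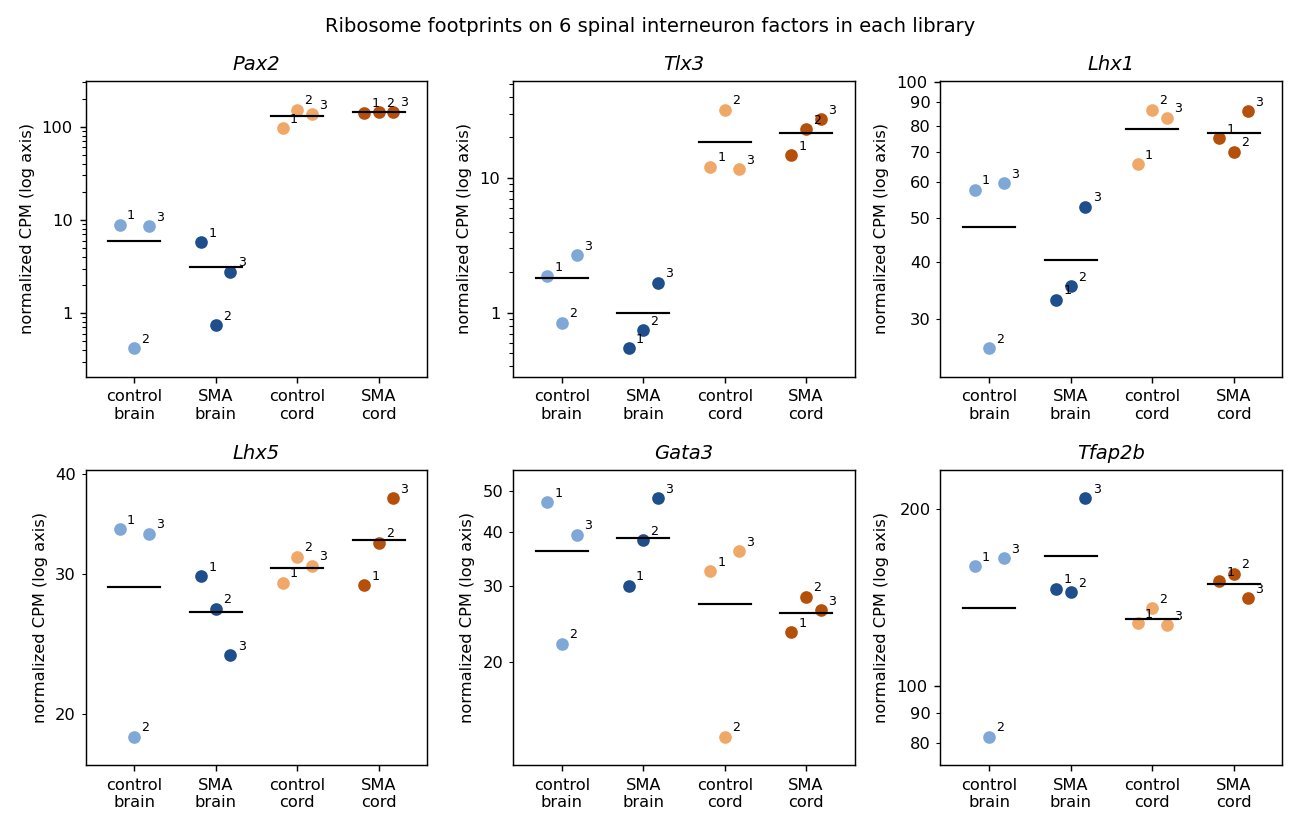
Normalized CPM of the 6 interneuron factors in each of the 12 libraries, on log axes of different range, with each point a library marked by its replicate number and each bar the mean of 3 libraries. Pax2 and Tlx3 show a gap between brain and cord (at most 8.86 against at least 96.8 CPM for Pax2), whereas Lhx5 and Tfap2b lie in the same range in both tissues.

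Per length, as CPM divided by the deposited gene length in kilobases (RPKM), the order of the 6 differed between the tissues. In control spinal cord Pax2 stood at 23.8 ± 5.29 RPKM, Tfap2b at 20.6 ± 0.753, Lhx1 at 19.3 ± 2.77, Tlx3 at 12.1 ± 7.63, Lhx5 at 11.3 ± 0.433 and Gata3 at 7.01 ± 3.13 RPKM (SD, n = 3). The libraries of each neighbouring pair in that order overlapped except for Lhx5 and Gata3, whose levels were at least 10.9 and at most 9.26 RPKM. In control brain Tfap2b led with 21.4 ± 7.36 RPKM, followed by Lhx1 with 11.7 ± 4.67, Lhx5 with 10.7 ± 3.26 and Gata3 with 9.27 ± 3.27 RPKM. Tlx3 and Pax2 came last with 1.17 ± 0.602 and 1.10 ± 0.884 RPKM, and here only Gata3 and Tlx3 were neighbours without overlap (at least 5.66 against at most 1.75 RPKM). The order in SMA cord was the same as in control cord. In SMA brain Tfap2b again led with 26.3 ± 5.77 RPKM, Lhx5, Lhx1 and Gata3 stood close together at 9.99, 9.95 and 9.95 RPKM, and Tlx3 and Pax2 were below 1 RPKM. Among all 10481 genes, Pax2 moved from percentile 5.4 in control brain to 65.5 in control cord and Tlx3 from 5.6 to 38.8, while Gata3 moved from 31.5 to 18.9 and Tfap2b from 62 to 60.2. The deposited lengths count whole exons, so genes with long untranslated ends are set lower than their coding part would be.

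The first comparison was of the 2 tissues, within each genotype, with edgeR's quasi-likelihood test on all 12 libraries and p-values adjusted over the 10481 genes. In control embryos 3 of the 6 factors were higher in spinal cord at an adjusted p below 0.05 (20.1% of all genes were) and 0 were lower (21.1% of all genes were). In SMA embryos the same 3, Pax2, Tlx3 and Lhx1, were higher (21.0% of all genes) and 0 were lower (19.3%). DESeq2 called the same number in each genotype. The groups did not overlap for 3 of 6 factors in control embryos, against 54.0% of all genes, and for 4 of 6 in SMA embryos, against 51.8%. The share of factors without overlap was thus near that of all genes. The median log2 fold change over the 6 was 0.39 in control and 0.62 in SMA embryos, where all genes had medians of 0.00 and 0.02. The study's filter removed genes under its FPKM cut-off in all replicates of a condition. Pax2 and Tlx3, at percentile 5.4 and 5.6 in control brain and 65.5 and 38.8 in control cord, may have been kept for their cord level alone. The counts and medians of the 6 include both, so they are no independent sign of a lean to the cord.

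Pax2 was 20.5-fold higher in control cord than in control brain (log2 fold change 4.36, SE 0.49, edgeR adjusted p = 5.12e-05). In SMA embryos it was 50.0-fold higher (log2 fold change 5.64, SE 0.58, edgeR adjusted p = 2.27e-05). Leaving out each library in turn moved the log2 fold change between 3.88 and 4.91 in control and between 5.05 and 6.48 in SMA embryos, and the call held each time. Without control brain library 2 and control cord library 1 together the control value was 4.04.

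Tlx3 was 10.3-fold higher in control cord than in control brain (log2 fold change 3.37, SE 0.51, edgeR adjusted p = 0.000325). In SMA embryos the difference was 22.1-fold (log2 fold change 4.47, SE 0.59, edgeR adjusted p = 0.000113). Both calls held with each library left out in turn, at 2.72 to 3.66 in control and 4.22 to 5.00 in SMA embryos. The inhibitory factor Pax2 and the excitatory factor Tlx3 were thus both higher in the cord, in both genotypes.

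Lhx1 was 1.64-fold higher in control cord (log2 fold change 0.71, SE 0.26, edgeR adjusted p = 0.0460) and 1.91-fold higher in SMA cord (log2 fold change 0.93, SE 0.27, edgeR adjusted p = 0.0165). The control call was lost without control brain library 2 (log2 fold change 0.42, edgeR adjusted p = 0.114), control cord library 2 (0.63, adjusted p = 0.110) or control cord library 3 (0.67, adjusted p = 0.103). The SMA call was lost without SMA brain library 1 (0.81, adjusted p = 0.0686), SMA brain library 2 (0.84, adjusted p = 0.0641) or SMA cord library 3 (0.85, adjusted p = 0.0506).

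Lhx5, Gata3 and Tfap2b did not pass in either genotype. The log2 fold change of Lhx5 in cord over brain was 0.07 in control (95% interval -0.34 to 0.49) and 0.30 in SMA embryos. That of Gata3 was -0.41 in control (95% interval -1.14 to 0.32, edgeR adjusted p = 0.338) and -0.58 in SMA embryos (-1.33 to 0.18, edgeR adjusted p = 0.199). The control value of Gata3 was -0.09 without control cord library 2 and -0.67 without control brain library 2. That of Tfap2b was -0.06 in control (95% interval -0.53 to 0.41) and -0.16 in SMA embryos. For these 3 genes a difference of the size seen for Pax2 or Tlx3 lay outside the control intervals.

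**Figure D2:**
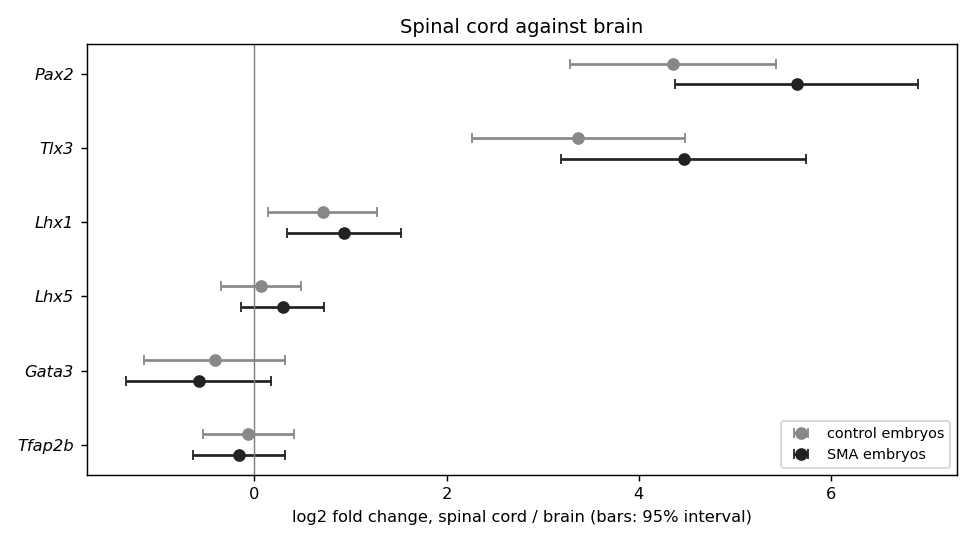
Log2 fold change of spinal cord over brain for the 6 factors in control (grey) and SMA (black) embryos, with bars for the 95% interval from edgeR (3 libraries per group). Pax2 and Tlx3 lie at 3.37 or above in both genotypes, Lhx1 lies just right of 0, and the intervals of Lhx5, Gata3 and Tfap2b span 0.

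The second comparison asked whether loss of Smn altered ribosome occupancy on these factors in the spinal cord, within the 6 cord libraries. No factor was called by the thresholds of the study's methods, which ask for a mean level of 0.05 CPM or more, a log2 fold change of 0.5 or more in either direction and a p under 0.05 before adjustment. That is 0 of 6, where 0.983% of all genes were called, and 0 of 6 also had an unadjusted edgeR p below 0.05 or passed the thresholds by DESeq2. With these fold and p thresholds the study itself reports more genes in cord than the 103 called here, so its own calls were not reproduced. The median log2 fold change of SMA over control was 0.12 over the 6 factors and -0.01 over all genes.

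Pax2 averaged 129 ± 28.6 CPM in control and 143 ± 1.74 CPM in SMA cord (SD, n = 3), a log2 fold change of 0.14 (SE 0.16, 95% interval -0.24 to 0.51, edgeR adjusted p = 0.809). Its lowest library, control cord 1 at 96.8 CPM, was the one with the raised brain region markers, and without it the log2 fold change was -0.03. Tlx3 averaged 18.6 ± 11.7 and 21.6 ± 6.42 CPM (log2 fold change 0.21, SE 0.44, 95% interval -0.83 to 1.24), with the widest interval of the 6. Tlx3 passed the thresholds only without control cord library 2 (log2 fold change 0.85, edgeR adjusted p = 0.720).

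Lhx1 averaged 78.6 ± 11.3 and 77.1 ± 8.19 CPM (log2 fold change -0.04, 95% interval -0.35 to 0.27), and Lhx5 averaged 30.5 ± 1.16 and 33.0 ± 4.17 CPM (log2 fold change 0.10, 95% interval -0.18 to 0.39). For both LIM factors the interval lay within the fold threshold of 0.5. Gata3 averaged 27.3 ± 12.2 and 26.0 ± 2.47 CPM (log2 fold change -0.08, 95% interval -0.89 to 0.72), where the control libraries spread from 13.4 to 36.1 CPM.

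Tfap2b came nearest to a difference. All 3 SMA cord libraries (141 to 155 CPM) lay above all 3 control cord libraries (127 to 136 CPM). It was the single factor of the 6 without overlap, a share near the 14.7% of all genes that had none. The log2 fold change was 0.18 (SE 0.08, 95% interval -0.00 to 0.37), with an unadjusted edgeR p of 0.0543 and an adjusted p of 0.684. An exact permutation test on its levels gave a 2-sided p of 0.1, which is the smallest that 3 libraries against 3 can give. The size of the difference was below the fold threshold.

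In brain, again, 0 of 6 factors were called, where 1.53% of all genes were, and 0 of 6 had an unadjusted edgeR p below 0.05. DESeq2 called none either. The SMA and control libraries overlapped for all 6, while 11.0% of all genes had no overlap. The median log2 fold change of SMA over control was -0.17 over the 6 and 0.00 over all genes.

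Pax2 had the lowest value, at 5.94 ± 4.78 CPM in control and 3.09 ± 2.51 CPM in SMA brain (log2 fold change -1.08, SE 0.72, 95% interval -2.63 to 0.47, edgeR adjusted p = 0.902). Since control brain library 2 held 2 footprints on Pax2, this value turned on it: without that library the log2 fold change was -1.58 and passed the thresholds (edgeR adjusted p = 0.789). Without SMA brain library 1 it was -1.93 (edgeR adjusted p = 0.996), and with the replicate number as a block -0.84 (edgeR adjusted p = 0.988), and both passed the thresholds as well. With each library left out in turn the log2 fold change stayed below 0, between -1.93 and -0.51.

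Tlx3, with 2 to 17 footprints per brain library, averaged 1.79 ± 0.923 and 0.987 ± 0.602 CPM (log2 fold change -0.86, SE 0.61, 95% interval -2.18 to 0.46). Lhx1 averaged 47.8 ± 19.0 and 40.5 ± 10.9 CPM (log2 fold change -0.24, 95% interval -0.80 to 0.33), and passed the thresholds only without control brain library 2 (log2 fold change -0.53, edgeR adjusted p = 0.829). Lhx5 averaged 28.8 ± 8.78 and 26.9 ± 3.05 CPM (log2 fold change -0.09, 95% interval -0.54 to 0.35). The values of these 4 factors were below 0, and none passed.

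The other 2 brain values were above 0 and did not pass either. Gata3 averaged 36.2 ± 12.8 and 38.8 ± 8.95 CPM (log2 fold change 0.10, 95% interval -0.40 to 0.60). Tfap2b averaged 136 ± 46.6 and 167 ± 36.6 CPM (log2 fold change 0.31, SE 0.21, 95% interval -0.16 to 0.77), and without control brain library 2 the log2 fold change was 0.05.

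**Figure D3:**
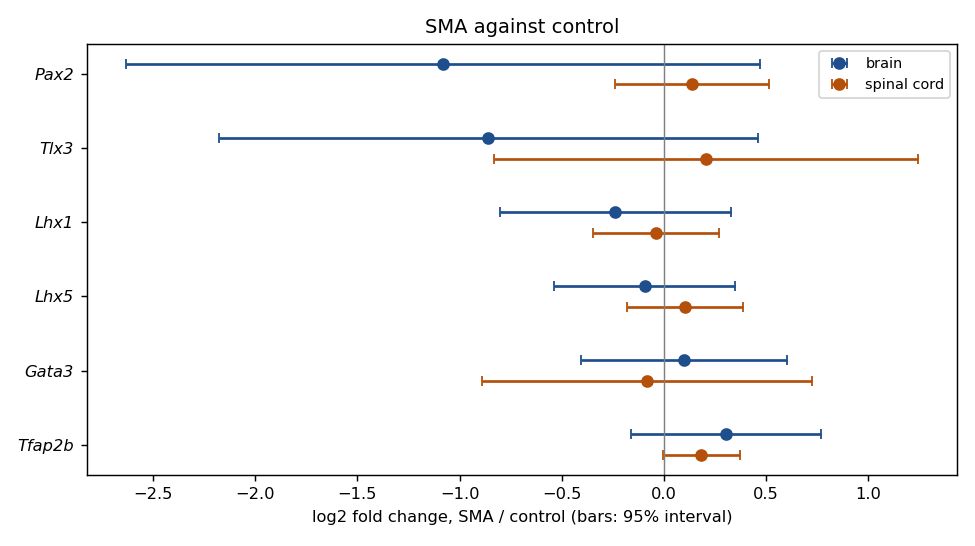
Log2 fold change of SMA over control for the 6 factors in brain (blue) and spinal cord (orange), with bars for the 95% interval from edgeR (3 libraries per group). Every interval includes 0, and the widest belong to Pax2 and Tlx3 in brain, where footprints were few.

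Whether the genotype difference itself differed between the tissues was tested as an interaction in the fit of 12 libraries. At an adjusted p below 0.05, 0 of 6 factors passed. At an unadjusted edgeR p below 0.05, 0 of 6 passed as well, where 2.38% of all genes did. The largest value was that of Pax2, whose difference between SMA and control was 1.29 higher in cord than in brain on the log2 scale (SE 0.82, 95% interval -0.50 to 3.08, edgeR adjusted p = 1). Leaving out single libraries moved it from 0.70 (without SMA brain library 2) to 2.12 (without SMA brain library 1), and was 1.77 without control brain library 2. The value of Tlx3 was 1.10 and ran from 0.80 to 1.75, the latter without control cord library 2. With 1 library left out, an unadjusted edgeR p below 0.05 was reached by Pax2 (lowest 0.00744), Tlx3 (lowest 0.0169) and Lhx5 (lowest 0.0298). The lowest edgeR adjusted p over these fits was 0.8645 for Pax2 and Tlx3 and 0.8753 for Lhx5. The unadjusted edgeR p of Pax2 was below 0.05 without control brain library 2 (edgeR adjusted p = 1). That of Tlx3 was below 0.05 without control cord library 2 (adjusted p = 0.996). Any other such fits are not listed here. The larger cord-to-brain fold of Pax2 and Tlx3 in SMA embryos was therefore not shown to differ from that in controls.

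The 6 factors were low or high together in the control brain libraries. In control brain library 2 all 6 lay below the mean of their group, with a median deviation of -0.64 on the log2 scale, and in libraries 1 and 3 all 6 lay above it. The same library was also the lowest of its group for 5 of 6 other factors of commissural and dorsal interneurons, Lhx2 being the exception: Ebf3 stood at 209 CPM against 435 and 439, Ebf2 at 28.4 against 79.5 and 69.3, Tfap2a at 17.2 against 52.0 and 40.0, Lhx9 at 142 against 199 and 165 and Skor1 at 2.10 against 7.0 and 10.2 CPM. Of the brain region markers, Otx2 was at its lowest there (87.4 CPM against 122 and 124), while Nkx2-1 (62.8 against 52.5 and 54.2) and Lhx2 (157 against 144 and 132 CPM) were at their highest. SMA brain library 2, where Pax2 was the lowest of the SMA brain libraries, had Otx2 at 97.6 CPM against 130 and 134, and it too had the highest Nkx2-1 (50.5 against 46.8 and 44.3) and Lhx2 (185 against 153 and 134 CPM) of its group. Some general neuron markers were also lowest of the group in control brain library 2. These were Nefl (47.1 against 72.9 and 63.2), Nefm (116 against 171 and 153) and Elavl2 (608 against 642 and 658 CPM), while Elavl3 and Map2 were not. The share of all genes lowest in that library was not counted, so the joint shift is not shown to be particular to these factors. The part of brain region content in the levels of the 6 factors was not tested.

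In the cord, control library 1 was below its group mean for 5 of the 6 factors and had the lowest Pax2, Lhx1 and Lhx5 of the control group. Otx2 stood at 41.1 CPM there and at 0.948 to 8.39 CPM in the other 5 cord libraries. Its summed Hox level, 389 CPM, was the lowest of the 6 cord libraries. Control cord library 2 held the highest Tlx3 and the lowest Gata3 and also the highest Hox sum, 688 CPM. In the SMA cord, library 1 had 1069 CPM of 3 liver genes (Apoa2, Apob and Apoh), against 6.41 and 14.9 CPM in the other SMA libraries, while Pax2 was 141 CPM there and 142 and 144 CPM in the others. In the control cord, library 3 had 351 CPM of the same genes, against 27.9 and 2.72 CPM in libraries 1 and 2.

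**Figure D4:**
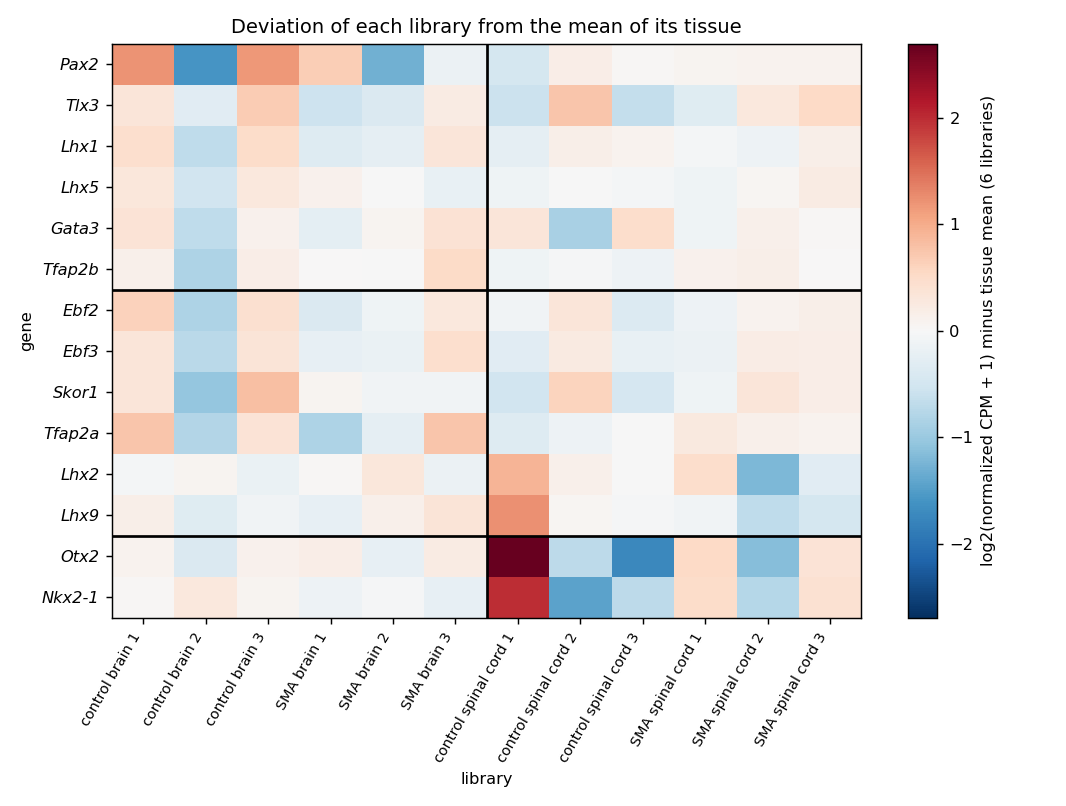
Deviation of each library from the mean of the 6 libraries of its tissue, as log2(normalized CPM + 1), for the 6 interneuron factors (top), other dorsal neuron factors (middle) and brain region markers (bottom). Control brain library 2 is below its tissue mean for all 6 factors and for Ebf2, Ebf3, Skor1 and Tfap2a, and control spinal cord library 1 is far above it for Otx2 and Nkx2-1.

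Of 29 further factors of commissural and dorsal interneurons, 6 could be followed by name. In control embryos 3 of these were higher in cord at an adjusted p below 0.05, as 20.1% of all genes were. These were Skor1, a co-repressor of dorsal horn neurons (log2 fold change 3.67, edgeR adjusted p = 4.29e-05), Tfap2a, the AP-2 relative of Tfap2b (1.64, adjusted p = 0.00404), and Ebf3, a factor of differentiating neurons (0.83, adjusted p = 0.025). Another 2 were lower in cord (21.1% of all genes were), Lhx2 (-2.43) and Lhx9 (-2.11), both of which have wide use in the brain. Ebf2 (0.26) did not pass. Skor1, at 6.45 CPM in control brain and 81.9 CPM in control cord, may have passed the study's filter for its cord level alone. The count of 3 includes Skor1 and is no independent sign of a lean to the cord. The calls had the same directions in SMA embryos, where 21.0% of all genes were called higher and 19.3% lower in cord. That of Ebf3 was lost in control embryos without control brain library 2 (0.56, edgeR adjusted p = 0.0701) or control cord library 2 (0.65, adjusted p = 0.0909), and in SMA embryos without SMA brain library 1 (0.88, adjusted p = 0.0516). Tfap2a was thus called higher in cord, where Tfap2b did not pass.

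Between genotypes, 0 of these 6 were called in brain (1.53% of all genes were) and 1 of 6 in cord (0.983% of all genes). Without control brain library 2, Ebf2 (-0.58) and Skor1 (-0.65) were called in brain. In cord, Skor1 (0.62) was called without control cord library 2, and Lhx2 with the replicate block (-0.72) or without SMA cord library 1 (-1.17). The cord call was Lhx9, a LIM factor of commissural neurons, with a log2 fold change of -0.98 (SE 0.38, edgeR adjusted p = 0.684). Its level was 63.2 CPM in control cord library 1 and 27.5 and 25.9 CPM in libraries 2 and 3, and without library 1 the log2 fold change was -0.43 and the call was lost, as it was without SMA cord library 2 (-0.85) or 3 (-0.93). Tfap2a had a log2 fold change of 0.32 in cord (SE 0.11, edgeR adjusted p = 0.684), below the fold threshold.

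Of the genes around these factors few could be followed, and 0 of them were called between genotypes in either tissue. Those were 1 of 25 neural tube progenitor factors (Sox9), 3 of 24 dorsal signals and receptors (Smad5, Wnt7b and Ctnnb1), 1 of 11 cofactors of LIM homeodomain proteins (Ssbp2) and 2 of 21 transmitter and effector genes (Calb2 and Sst). The 5 general neuron markers followed, among them Map2 and Elavl3, had 0 calls between genotypes in either tissue, and their summed level lay between 3871 and 5143 CPM over all 12 libraries. None of 29 ventral interneuron factors and none of 19 ganglion markers could be followed, so a share of sensory or sympathetic ganglia, which also use Tlx3, Gata3 and Tfap2b, was not measured.

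A few markers of other tissues passed the thresholds between genotypes, with an edgeR adjusted p of 0.902 for those in brain and 0.684 for that in cord. Of the 3 liver genes followed, Apoa2 and Apob were called higher in SMA brain, where their sum with Apoh was 37.7 CPM in SMA library 1 and 0.488 to 2.41 CPM in the other brain libraries. Of other tissues, 1 marker each of mesenchyme (Col1a1, log2 fold change -0.95 in brain) and of red blood cells (Slc4a1, 2.08 in cord) was called, and Fabp7 and Pmp22 of Schwann cells and Mef2c of muscle, genes that neural cells also use, were not. Their part in the values of the 6 factors was not tested.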

How the data were processed

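Ribosome footprints came from 4 groups of 3 libraries, which were brain or cord of either genotype. The authors took the 80S monosome fraction of RNase-treated cytoplasmic lysates, trimmed reads (cutadapt 4.1), removed rRNA and tRNA reads, aligned to GRCm38.p6 with STAR 2.5.3a while keeping multiple alignments, removed duplicate positions and applied an FPKM filter. The deposited values are raw counts per gene and library, and the counting tool is not given in the sources used here. A legend of the study gives 3 embryos per genotype. Whether brain and cord libraries with the same number share an embryo is not stated there. Smn1 was not analysed here, so genotypes rest on the labels.

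All 10481 genes were tested with edgeR 4.0.16 under R 4.3.3 (TMM, estimateDisp, glmQLFit, glmQLFTest). Genotypes were compared within each tissue (6 libraries), as in the study's methods, and tissues and the interaction in 1 fit of 12 libraries. Adjusted p-values are Benjamini-Hochberg over all genes, and tests are 2-sided. The SE comes from the log2 fold change and the F statistic, and 95% intervals use the t quantile. The biological coefficient of variation was 0.108 in brain and 0.220 in cord. Pairs of libraries in a group differed beyond sampling noise (chi-square per gene 3.98 to 23.7). Scripts were tested on simulated data. Alternatives were DESeq2 1.42.0, library size alone, upper-quartile factors, filterByExpr, the replicate number as a block, removal of a trend on counts per base, 1 fit for all libraries and each library left out. Plots used matplotlib 3.10.9 (Python 3.11.15, pandas 2.3.3, numpy 2.4.6).

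The factors and gene lists were chosen with earlier results of these data known. All 6 factors in the table are named, and from a list the genes past the thresholds or those with the most footprints. Names came from the list of identifiers for 3 factors and from a name table of the study for the other 3 and for 1999 genes in all. Coordinates are RefSeq's on GRCm38.p6, matched by symbol for 6 of 6.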

Additional observations from a re-analysis of the deposited data

How the results depend on the processing

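In brain 0 of 6 factors were called, and 1 (Pax2) with the replicate block. With 1 library left out, 0 to 2 were called in brain, 0 to 1 in cord and 2 to 3 in each comparison of tissues. Lhx1 lost its control tissue call with upper-quartile factors (0.66, edgeR adjusted p = 0.0562), the trend taken out (0.64, adjusted p = 0.0588) and, chosen after seeing the data, without control brain library 2 and control cord library 1 together (0.53, adjusted p = 0.0550). Values near 0 changed sign: Gata3 in cord with the replicate block (0.011) or the trend taken out (0.025), Lhx5 in the control tissues with the trend taken out (-0.038) or without both libraries (-0.12), and without both libraries the interactions of Gata3 (0.23) and Tfap2b (0.15). With 1 library left out, log2 fold changes ranged in brain from -0.32 to 0.055 for Lhx5 and from -0.15 to 0.35 for Gata3, and in cord from -0.027 to 0.28 for Pax2, from -0.043 to 0.85 for Tlx3, from -0.15 to 0.038 for Lhx1 and from -0.41 to 0.16 for Gata3. They ranged between control tissues from -0.15 to 0.23 for Lhx5 and from -0.32 to 0.10 for Tfap2b, between SMA tissues from -0.25 to 0.035 for Tfap2b, and in the interaction from -0.49 to 0.087 for Gata3 and from -0.25 to 0.16 for Tfap2b. The cause was not tested.

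Of all genes, 160 were called in brain, 91 by DESeq2 and 169 to 273 with 1 library left out. In cord 103 were called, 169 in 1 fit of 12 libraries, 207 with the replicate block and 58 to 388 with 1 library left out. Between control tissues 4309 were called, and 2829 without both libraries. Same-numbered libraries did not deviate together in every pair (r across genes of -0.146, 0.007 and 0.011 between genotypes in brain, 0.179, 0.683 and -0.495 in cord, 0.125, 0.003 and 0.136 between control tissues and 0.27, 0.071 and 0.126 between SMA tissues). Libraries of unlike number were not correlated, so these values cannot decide whether the numbers are pairs. The main fits did not take them as pairs. A shared embryo is possible between tissues, and the main tissue tests would then leave that pairing out. The fit of 12 libraries is the main one for the tissues, so it gave no further alternative there. Footprints on Tlx3 numbered 2 to 17 per brain library, which limits its precision there.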
